A study of Mus musculus with 6 samples.

Results

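The creatine kinase and energy transfer genes are 9 genes whose products move high-energy phosphate and oxygen between the mitochondria and the contracting filaments of heart muscle, namely Ckm, Ckmt2, Ckb, Slc6a8, Ak1, Ak3, Slc25a4, Vdac1 and Mb. They were chosen by name, and each was found among the 18019 NCBI gene IDs of the deposited expression table. All 9 passed the filter on low values (a mean of at least 1 FPKM, fragments per kilobase of gene scaled to library size), which kept 11422 genes. The lowest value of any of them, 17.4 FPKM for Ckb in library VNS-TAC 3, stood for about 267 fragments per kilobase of transcript.

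The samples were hearts of wild-type mice taken 8 weeks after transverse aortic constriction (TAC), an operation that narrows the aorta and loads the left ventricle, and both groups had it. Values of a group are given in the order of its libraries 1, 2 and 3 throughout. The 3 VNS-TAC samples came from mice given the virus rAAV-ChAT-hChR2[H134R]-GFP in the dorsal vagal motor nucleus, which puts a light-gated channel under the ChAT promoter, active in cholinergic neurones, so that light can drive the vagus nerve. The 3 Ctrl-TAC samples came from mice given rAAV-ChAT-GFP, without the channel. The VNS-TAC libraries carry the name X10Hz_TAC, which holds a frequency, and the Ctrl-TAC libraries the name con_TAC. The groups were read from the sample titles, since a treatment tag names VNS for all 6 samples, and strain, age, sex and part of the heart are not given in the labels used here.

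Creatine kinase transfers phosphate between ATP and creatine. The mitochondrial form makes phosphocreatine where ATP is produced, and the cytosolic forms turn it back to ATP beside the myosin heads and ion pumps. Adenylate kinases recover ATP from ADP, the adenine nucleotide translocase and the outer membrane channel carry nucleotides out of and into the mitochondrion, and myoglobin stores and passes on oxygen. A loss of creatine kinase activity and of creatine is a known feature of the failing heart.

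None of the 9 genes differed between VNS-TAC and Ctrl-TAC at an adjusted p under 0.05 (limma across all 11422 genes), where 0% of all genes did. At an unadjusted p under 0.05 there were 2, Slc25a4 on the higher side and Ak3 on the lower, beside 15.0% of all genes. On the higher side this was 1 of 9, beside 3.79% of all genes, and on the lower side 1 of 9, beside 11.3%. The same 2 were the members whose groups did not overlap, and 25.4% of all genes had groups without overlap, 8.01% higher and 17.4% lower in VNS-TAC (14.0% and 11.2% with size factors). The median log2 fold change of the 9 was -0.06, beside -0.08 for all genes tested, and 4 of them lay above 0, beside 38.2% of all genes, and 5 below. The VNS-TAC libraries spread more widely than the controls for all 9, and library VNS-TAC 1 had the highest and VNS-TAC 3 the lowest values of several members.

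The libraries differed before any gene was compared. Depth, estimated from the steps of low FPKM values, was 13600000 to 15840000 fragments, so 1 fragment on a transcript of 1 kilobase was worth 0.0631 to 0.0735 FPKM. Across genes the Ctrl-TAC libraries correlated at 0.988 to 0.992 with each other, and VNS-TAC 3 correlated with them at 0.947 to 0.952 and VNS-TAC 1 at 0.968 to 0.974. Transcript GC content went with how far genes of VNS-TAC 1 lay from their average (Spearman 0.549 across genes, against -0.418 to 0.02 elsewhere). The longest transcripts of the 9 genes have a GC content of 47.7% to 61.7%, with a median of 50.1% over all genes tested. Among the 9 only Ak3 lies below that median. Heart muscle was present in all 6 libraries, with 11 of 11 cardiomyocyte markers past the filter and a summed level of 51591 to 74945 FPKM in VNS-TAC and 55306 to 56719 in Ctrl-TAC. In bulk tissue, fewer cells of a type and less RNA per cell cannot be told apart.

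By level, Mb was highest, with a mean of 13343 FPKM over the 6 libraries, followed by Slc25a4 (6658), Ckm (1785), Ckmt2 (1557), Vdac1 (555), Ak1 (363), Slc6a8 (72.6), Ak3 (47.9) and Ckb (38.9). Neighbours in this order kept it in all 6 libraries, except Mb and Slc25a4, Ckm and Ckmt2, and Ak3 and Ckb, which kept it in 5 of 6. Mb ranked between 1 and 4 among all genes and Slc25a4 between 3 and 10. The 9 genes together made up 5.07%, 4.94% and 3.85% of the FPKM sum across VNS-TAC, and 4.22% to 4.54% in Ctrl-TAC.

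**Figure D1:**
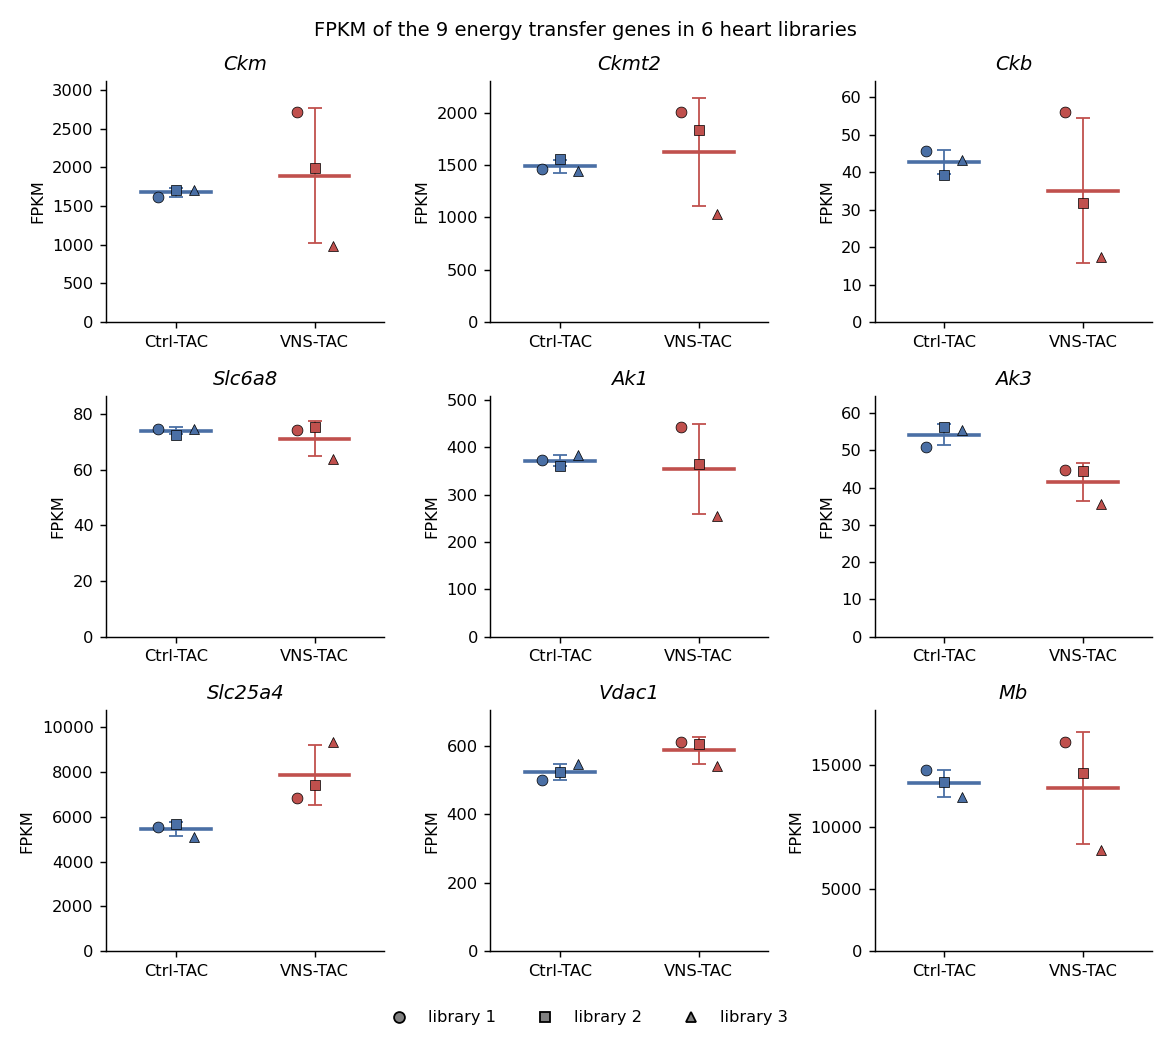
FPKM (vertical axes, linear from 0) of the 9 energy transfer genes in 3 Ctrl-TAC and 3 VNS-TAC libraries. Symbols are single libraries, horizontal bars group means and error bars the SD (n = 3). The Ctrl-TAC libraries lie close together for each gene, while Ckm runs from 982 to 2707 in VNS-TAC and only Slc25a4 and Ak3 have groups that do not overlap.

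Ckm encodes the muscle creatine kinase, the main cytosolic form in heart (chromosome 7, 19411094 to 19421583, GRCm38). It was at 2707, 1990 and 982 FPKM across VNS-TAC, and at 1613, 1709 and 1711 FPKM across Ctrl-TAC. Libraries VNS-TAC 1 and 2 lay above every control and VNS-TAC 3 below every control. The fitted log2 fold change was 0.06 ± 0.34 (SE; limma adjusted p = 0.947). It was -0.26 without VNS-TAC 1, -0.04 without VNS-TAC 2 and 0.47 without VNS-TAC 3, and -0.05 after quantile normalization or -0.02 with libraries brought to the same sum. Within VNS-TAC the highest library had 2.76 times the level of the lowest, against 1.06 times within Ctrl-TAC. On the log2 scale this VNS-TAC range was larger than that of 96.2% of the genes tested, while the Ctrl-TAC range was larger than that of 11.7%.

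Ckmt2 encodes the sarcomeric mitochondrial creatine kinase, which sits between the inner and outer membranes (chromosome 13, 91853386 to 91876923). Its values were 2004, 1841 and 1035 FPKM across VNS-TAC, and 1467, 1555 and 1441 FPKM in the controls. As with Ckm, VNS-TAC 1 and 2 were above all controls and VNS-TAC 3 was below them. Its log2 fold change was 0.07 ± 0.26 (SE; limma adjusted p = 0.906), and -0.11, -0.05 and 0.37 without VNS-TAC 1, 2 and 3. It was -0.02 after quantile normalization and -0.01 with libraries brought to the same sum. Without VNS-TAC 3 both muscle creatine kinases had unadjusted limma p-values of 0.0149 (Ckm) and 0.00961 (Ckmt2), and adjusted values of 0.202 and 0.192. In that setting 2478 of the 11422 genes had an unadjusted limma p under 0.05, against 1719 with all 6 libraries. Over every alternative their adjusted p ran from 0.202 to 0.987 for Ckm and from 0.192 to 0.993 for Ckmt2.

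Ckb encodes the brain-type cytosolic creatine kinase, which is also made in smooth muscle and endothelium (chromosome 12, 111669355 to 111672338). It was at 55.9, 31.9 and 17.4 FPKM across VNS-TAC, and at 45.7, 39.3 and 43.3 across Ctrl-TAC. VNS-TAC 1 was above all controls and the other two VNS-TAC libraries were below them. Between the groups the log2 fold change was -0.42 ± 0.36 (SE; limma adjusted p = 0.575), and it was -0.83 without VNS-TAC 1 and -0.01 without VNS-TAC 3. The highest VNS-TAC value was 3.21 times the lowest, the widest spread of the 9 genes, and its log2 range exceeded that of 97.4% of genes.

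Because a rescaling of a library has no effect on a ratio taken within it, 7 ratios were compared with an exact permutation test, whose smallest possible p is 0.1 with 3 libraries against 3. Ckb relative to Ckm was lower in every VNS-TAC library. The log2 ratio was -5.60, -5.96 and -5.82 across VNS-TAC, and -5.14, -5.44 and -5.30 in Ctrl-TAC, a difference of -0.50 (2-sided exact p = 0.1, adjusted over the 7 ratios 0.56). The groups did not overlap, although the level of either gene did. As a share of the FPKM of the 4 creatine kinase genes, Ckb was 1.17%, 0.826% and 0.857% across VNS-TAC, and 1.19% to 1.46% in Ctrl-TAC. The difference in the log2 ratio was -0.52 with the GC trend removed, and between -0.59 and -0.41 when single libraries were left out. The endothelial marker mean was -0.05, -0.24 and -0.48 relative to Ctrl-TAC across VNS-TAC, and the smooth muscle mean -0.74, -0.76 and -0.70, with controls of -0.11 to 0.09 and -0.52 to 0.66. All 5 endothelial and all 5 smooth muscle markers passed the filter, and their summed levels were 196 to 257 against 244 to 278 FPKM and 120 to 145 against 150 to 287 FPKM. The part of these cells in the Ckb ratio was not tested.

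The balance of mitochondrial to cytosolic muscle creatine kinase overlapped between the groups. The log2 ratio of Ckmt2 to Ckm was -0.43, -0.11 and 0.08 across VNS-TAC, and -0.14, -0.14 and -0.25 in Ctrl-TAC (difference 0.02, 2-sided exact permutation p = 0.8). VNS-TAC 1 had the lowest and VNS-TAC 3 the highest ratio of the 6, and without VNS-TAC 3 the difference was -0.10. Ckm supplied 56.8%, 51.5% and 48.3% of creatine kinase FPKM across VNS-TAC, and 51.6% to 53.5% in Ctrl-TAC. The other mitochondrial form, Ckmt1, was under the filter and made up at most 0.0157%.

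**Figure D2:**
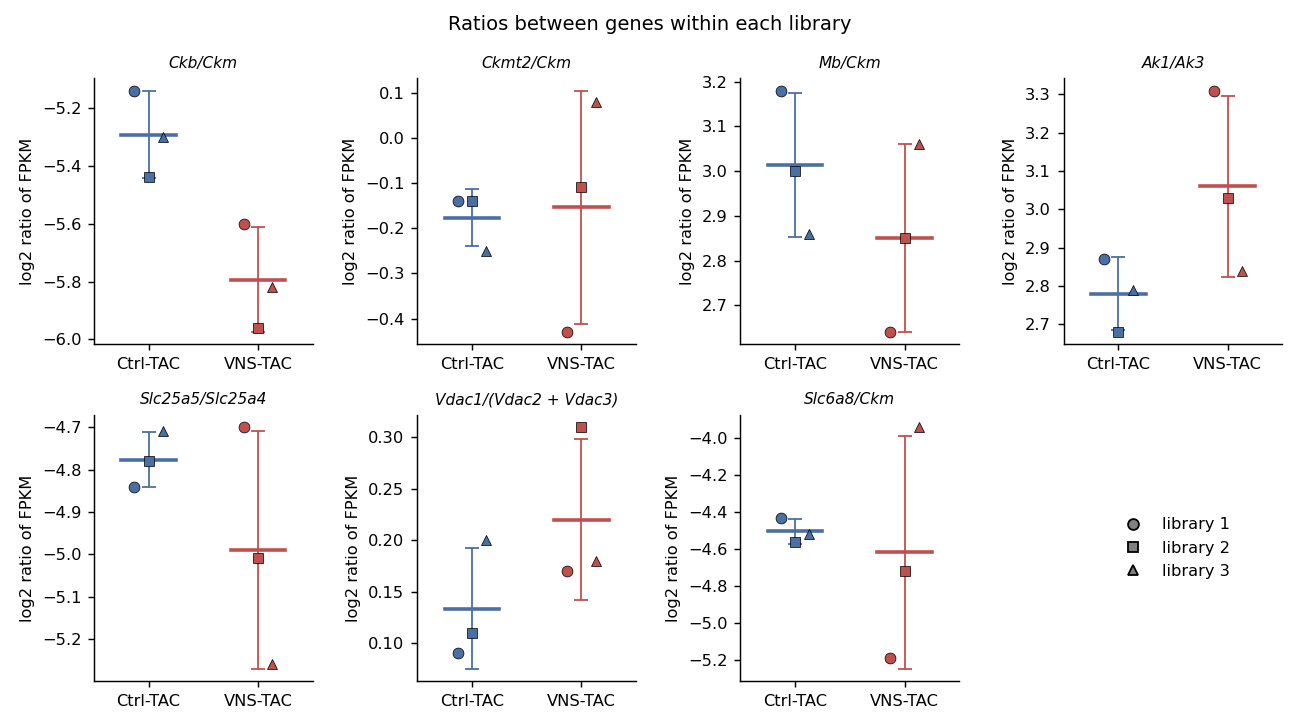
Log2 ratios of FPKM between genes of the same library (vertical axes, each with its own range) in 3 Ctrl-TAC and 3 VNS-TAC libraries. Symbols are libraries, bars group means and error bars the SD (n = 3). Only Ckb/Ckm has groups that do not overlap, at -5.96 to -5.60 in VNS-TAC and -5.44 to -5.14 in Ctrl-TAC.

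The upstream sequences of the creatine kinase genes and of Slc25a4 are shown because all 3 kinases were highest in VNS-TAC 1 and lowest in VNS-TAC 3, by different amounts, and Slc25a4 had the opposite ranking within VNS-TAC. Each run is the 250 bases before a RefSeq start site (GRCm38.p6), 5′ to 3′ on the gene's strand, and capitals mark matches on either strand to 4 motifs. These are TATAA, the box bound by the basal transcription machinery, then CCAAT, the box of factor NF-Y, then AAGGTCA, bound by estrogen-related receptors, and the consensus of MEF2, a muscle transcription factor, which can overlap the first.
Ckm, chr7:19410844-19411093, plus strand: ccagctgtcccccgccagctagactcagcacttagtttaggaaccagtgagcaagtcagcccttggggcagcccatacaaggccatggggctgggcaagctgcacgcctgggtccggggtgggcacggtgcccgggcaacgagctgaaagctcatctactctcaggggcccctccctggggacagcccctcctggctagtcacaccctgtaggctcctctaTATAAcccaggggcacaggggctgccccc
Ckmt2, chr13:91876886-91877135, minus strand: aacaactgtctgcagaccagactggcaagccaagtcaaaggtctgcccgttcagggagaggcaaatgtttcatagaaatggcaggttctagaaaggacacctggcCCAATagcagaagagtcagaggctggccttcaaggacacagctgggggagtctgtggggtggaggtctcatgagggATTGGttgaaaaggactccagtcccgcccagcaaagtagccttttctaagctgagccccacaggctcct
Ckb, chr12:111672339-111672588, minus strand: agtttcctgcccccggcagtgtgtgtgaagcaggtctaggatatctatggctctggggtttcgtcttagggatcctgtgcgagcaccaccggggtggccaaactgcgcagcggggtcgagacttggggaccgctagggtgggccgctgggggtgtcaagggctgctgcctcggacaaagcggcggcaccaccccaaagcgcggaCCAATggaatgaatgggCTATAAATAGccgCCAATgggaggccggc
Slc25a4, chr8:46211063-46211312, minus strand: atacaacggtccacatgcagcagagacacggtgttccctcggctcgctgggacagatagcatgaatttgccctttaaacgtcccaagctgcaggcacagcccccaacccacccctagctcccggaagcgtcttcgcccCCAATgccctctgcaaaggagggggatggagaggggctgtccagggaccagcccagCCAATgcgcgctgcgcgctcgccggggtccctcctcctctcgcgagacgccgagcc

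Ckm and Ckb have TATAA at nearly the same place, from -29 to -25 and from -28 to -24 relative to the start, and Ckmt2 and Slc25a4 have none in this window. In Ckb the match lies inside a MEF2 consensus (-29 to -20), flanked by 2 CCAAT matches. Ckmt2 and Slc25a4 have 2 CCAAT matches each and Ckm has none. Of all 32851 promoter windows of this length, 22.8% hold TATAA, 33.9% CCAAT, 4.08% AAGGTCA and 0.51% the MEF2 consensus. AAGGTCA matched only at the third of 4 start sites of Ak1 and the second of 2 of Vdac1 among the 8 genes with a sequence, and at none of the 4 windows printed. The GC content of the printed windows was 64.8% (Ckm), 54.0% (Ckmt2), 62.8% (Ckb) and 64.8% (Slc25a4).

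Slc6a8 encodes the creatine transporter of the cell membrane (chromosome X, 73673133 to 73682502), on which heart muscle depends because it makes little creatine itself. It was the steadiest of the 9 in the controls, at 74.7, 72.6 and 74.6 FPKM in Ctrl-TAC, and was at 74.1, 75.3 and 63.9 FPKM across VNS-TAC. VNS-TAC 1 and 2 were within or just above the control range, and VNS-TAC 3 was below it. The fitted log2 fold change was -0.06 ± 0.12 (SE; limma adjusted p = 0.815), and 0.01 without VNS-TAC 3, 0.04 with size factors and 0.04 with the length trend removed. Its Ctrl-TAC range was smaller than that of nearly all genes tested, being larger than 2.7% of them. The log2 ratio of Slc6a8 to Ckm was -5.19, -4.72 and -3.94 across VNS-TAC, and -4.56 to -4.43 in Ctrl-TAC. VNS-TAC 3 thus had the most transporter RNA per Ckm RNA, and VNS-TAC 1 the least (difference of means -0.12, 2-sided exact permutation p = 0.7, and 0.17 without VNS-TAC 1).

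Genes of creatine synthesis were at low levels. Of the list of other creatine genes, 3 of 6 passed the filter, 0 of 3 passed the limma test, 2 had an unadjusted p under 0.05 (15.0% of all genes), and the same 2 had groups that did not overlap, both lower in VNS-TAC, beside 17.4% of all genes on that side. Gatm, which makes guanidinoacetate, was at 0.90, 0.82 and 0.21 FPKM across VNS-TAC, and at 1.77, 1.63 and 1.86 across Ctrl-TAC. Its log2 fold change was -0.77 ± 0.19 (SE; limma adjusted p = 0.221). With means of 0.643 FPKM in VNS-TAC and 1.75 in Ctrl-TAC, Gatm passed the filter of 1 FPKM only through the controls. Its presence among the tested genes thus rests on the group where it is high, and its lack of overlap is no separate support. Gamt, which methylates guanidinoacetate to creatine, was at 5.21, 3.90 and 2.49 FPKM, against 6.54, 6.01 and 5.61 in Ctrl-TAC, with a log2 fold change of -0.57 ± 0.21 (limma adjusted p = 0.289). The third gene tested, Slc6a6, the taurine transporter, overlapped at 46.3, 46.0 and 29.2 against 32.1 to 49.4 FPKM, and it was named after its values were seen.

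Ak1 encodes the cytosolic adenylate kinase (chromosome 2, 32621758 to 32635058). It was at 442, 364 and 254 FPKM across VNS-TAC, and at 373, 360 and 383 across Ctrl-TAC. VNS-TAC 1 was above, VNS-TAC 2 within and VNS-TAC 3 below the controls. Its log2 fold change was -0.11 ± 0.21 (SE; limma adjusted p = 0.809), and 0.11 without VNS-TAC 3.

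Ak3 encodes the adenylate kinase of the mitochondrial matrix, which uses GTP (chromosome 19, 28995053 to 29048080). It was at 44.6, 44.4 and 35.5 FPKM across VNS-TAC, and at 51.0, 56.3 and 55.5 across Ctrl-TAC. All 3 VNS-TAC values were below all controls, with means of 41.5 ± 5.19 and 54.3 ± 2.86 FPKM (SD, n = 3). Between the groups the log2 fold change was -0.38 ± 0.13 (SE; limma unadjusted p = 0.0210, adjusted p = 0.264). It lay between -0.46 and -0.27 over all 18 alternatives, with an adjusted p of 0.0788 to 0.711. The groups overlapped with size factors or with the GC trend removed, where the log2 fold change was -0.29 and -0.27. Ak3 has the lowest transcript GC content of the 9, at 47.7%.

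The log2 ratio of Ak1 to Ak3 overlapped, at 3.31, 3.03 and 2.84 against 2.68 to 2.87 (exact permutation p = 0.2). Of 13 other adenylate and nucleotide kinases tested, 0 passed limma, 1 had an unadjusted p under 0.05 (15.0% of all genes), 6 lay above and 7 below 0, and 1 had groups that did not overlap (25.4% of all genes). Cmpk2, a mitochondrial nucleotide kinase that interferon induces, was at 2.10 ± 0.093 against 3.91 ± 0.78 FPKM (SD, n = 3; log2 fold change -0.65 ± 0.15 SE, limma adjusted p = 0.207). Ak4, a second matrix adenylate kinase, overlapped at 10.7, 6.82 and 2.92 against 9.67 to 11.5 FPKM, with a log2 fold change of -0.71 ± 0.36 (limma adjusted p = 0.382).

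Slc25a4 encodes the heart form of the adenine nucleotide translocase, which exchanges mitochondrial ATP for cytosolic ADP across the inner membrane (chromosome 8, 46207168 to 46211062). It was at 6821, 7426 and 9349 FPKM across VNS-TAC, and at 5534, 5697 and 5120 across Ctrl-TAC. Every VNS-TAC value was above every control, and VNS-TAC 3, lowest of the 6 libraries for 7 of the 9 genes, was highest here. The group means were 7865 ± 1320 and 5451 ± 297 FPKM (SD, n = 3), a ratio of 1.44. The fitted log2 fold change was 0.52 ± 0.19 (SE; limma unadjusted p = 0.0272, adjusted p = 0.278). Over 18 alternatives it lay between 0.39 (without VNS-TAC 3) and 0.62 (size factors), and the adjusted p between 0.0409 and 0.711. The lowest came from array weights, the sole alternative that called a member, in which VNS-TAC 2 had a weight of 2.82 and the other two VNS-TAC libraries 0.246 and 0.247. After quantile normalization the log2 fold change was 0.40 and the groups overlapped.

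Slc25a5, the translocase of many tissues, is much like Slc25a4 in sequence, and how reads shared by such genes were counted is not given. It was at 262, 230 and 244 FPKM across VNS-TAC, and at 193, 208 and 196 across Ctrl-TAC, again without overlap (log2 fold change 0.30). Slc25a4 made up 96.3%, 97.0% and 97.4% of translocase FPKM in VNS-TAC and 96.3% to 96.6% in Ctrl-TAC. The log2 ratio of Slc25a5 to Slc25a4 overlapped, at -4.70, -5.01 and -5.26 against -4.84 to -4.71 (difference -0.22, 2-sided exact permutation p = 0.4).

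Vdac1 encodes the main channel of the outer mitochondrial membrane, through which ATP and ADP pass (chromosome 11, 52360851 to 52389397). It was at 613, 606 and 543 FPKM across VNS-TAC, and at 500, 523 and 547 across Ctrl-TAC. VNS-TAC 1 and 2 were above the controls, and VNS-TAC 3 was inside their range. Its log2 fold change was 0.16 ± 0.12 (SE; limma adjusted p = 0.534), and -0.05 after quantile normalization. Its VNS-TAC range was the narrowest of the 9 genes. Vdac1 made up 53.0%, 55.4% and 53.1% of the 3 Vdac genes in VNS-TAC and 51.6% to 53.4% in Ctrl-TAC, and Vdac2 was at 306, 284 and 312 FPKM against 252, 255 and 267. Vdac3 was at 238, 204 and 167 against 209 to 231 FPKM. The log2 ratio of Vdac1 to the sum of Vdac2 and Vdac3 differed by 0.09 (2-sided exact permutation p = 0.3), and by -0.10 with the GC trend removed.

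Of 13 other carriers, porins and hexokinases tested, 0 passed limma, 4 had an unadjusted p under 0.05 (15.0% of all genes), 5 lay above and 8 below 0, and 6 had groups that did not overlap, 3 in each direction, beside 8.01% of all genes higher and 17.4% lower. The higher ones were Slc25a5, Vdac2 and Hk1, a hexokinase that docks on the outer membrane, at 90.1, 65.4 and 87.6 FPKM against 57.1 to 64.0. The lower ones were Slc25a24, Slc25a36 and Hk2, the insulin-responsive hexokinase, at 59.2, 58.9 and 33.3 FPKM against 63.3 to 67.0. Slc25a24, an ATP-Mg and phosphate carrier, was at 1.94 ± 0.035 against 3.05 ± 0.53 FPKM (SD, n = 3; limma adjusted p = 0.251). Slc25a36, a pyrimidine nucleotide carrier, was at 9.79 ± 1.49 against 13.8 ± 1.35 (limma adjusted p = 0.257). Hk1 and Hk2, Vdac2 and Slc25a5 were named after their values were seen or for a ratio.

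Mb encodes myoglobin, the oxygen-binding protein of heart and red muscle (chromosome 15, 77015487 to 77050668). It was at 16894, 14383 and 8163 FPKM across VNS-TAC, and at 14580, 13624 and 12415 across Ctrl-TAC. VNS-TAC 1 was above the controls, VNS-TAC 2 within them and VNS-TAC 3 below. Between the groups the log2 fold change was -0.10 ± 0.30 (SE; limma adjusted p = 0.878), and 0.21 without VNS-TAC 3. The log2 ratio of Mb to Ckm was 2.64, 2.85 and 3.06 across VNS-TAC and 2.86 to 3.18 in Ctrl-TAC (difference -0.16, 2-sided exact permutation p = 0.4).

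The spread of most of these genes over the VNS-TAC libraries had a common ranking. VNS-TAC 1 was above VNS-TAC 2 and VNS-TAC 2 above VNS-TAC 3 in 7 of the 9 genes (Ckm, Ckmt2, Ckb, Ak1, Ak3, Vdac1 and Mb), beside 23.8% of all genes tested. VNS-TAC 3 was the lowest of the 6 libraries for 7 genes, beside 26.4% of all genes, and the highest for Slc25a4 alone, beside 31.8%. VNS-TAC 1 was the highest for 6, beside 18.9%. The part of transcript GC content, which went with the deviations of VNS-TAC 1, in this ranking was not tested. All 9 had a wider log2 range in VNS-TAC than in Ctrl-TAC, as did 81.5% of all genes. In VNS-TAC 3, relative to the control mean on the log2 scale, Ckb was at -1.24, Ckm at -0.77, Mb at -0.73, Ak3 at -0.60, Ak1 at -0.55, Ckmt2 at -0.52, Slc6a8 at -0.21, Vdac1 at 0.05 and Slc25a4 at 0.78.

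**Figure D3:**
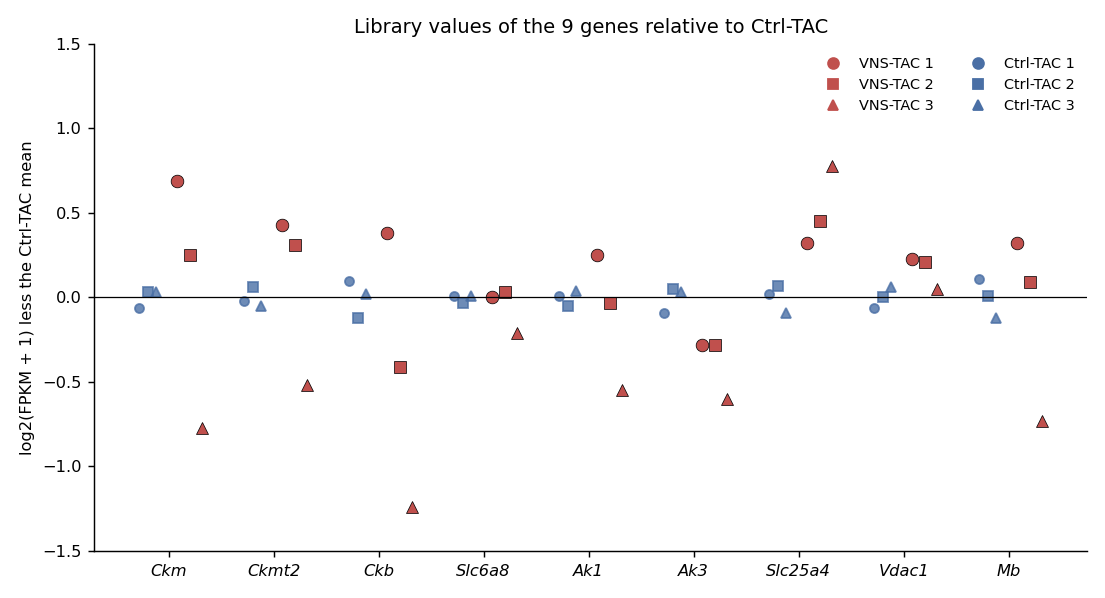
Values of log2(FPKM + 1) less the Ctrl-TAC mean (vertical axis) for the 9 genes in 6 libraries, with blue symbols for Ctrl-TAC and red symbols for VNS-TAC and shapes for library numbers. VNS-TAC 3 (red triangles) lies lowest for 7 genes, down to -1.24 for Ckb, and highest for Slc25a4 at 0.78.

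The cardiomyocyte marker mean moved the same way by less across VNS-TAC, at 0.24, 0.15 and -0.22 relative to Ctrl-TAC. Its genes did not move together in VNS-TAC 3, where the troponin gene Tnnt2 was at 15154 FPKM against 7014 to 7657 in Ctrl-TAC and the actin gene Actc1 at 2667 against 9024 to 10501. With the cardiomyocyte mean subtracted, the groups did not overlap for Ak3 and Slc25a4, 2 of 9, beside 19.3% of all genes treated the same way. Ak3 was then at -0.51, -0.43 and -0.38 across VNS-TAC and -0.08 to 0.07 in Ctrl-TAC, a difference of -0.44 with an SD of 0.07 and 0.08. Slc25a4 was at 0.09, 0.30 and 1.0 against -0.11 to 0.08, a difference of 0.46 (2-sided exact permutation p = 0.1 for each, adjusted over the 9 genes 0.45). With the median of the list in place of its mean both overlapped (differences -0.45 and 0.45, exact permutation p = 0.2 and 0.5), and the 2 genes without overlap were Ckb and Mb (-0.49 and -0.17, exact permutation p = 0.1 for each), beside 8.77% of all genes. Without Myh6, Actc1 and Tnni3 in the list, 3 genes had no overlap, Slc6a8 (-0.17), Ak3 (-0.49) and Slc25a4 (0.41), beside 30.6% of all genes. Without VNS-TAC 3 the Slc25a4 difference was 0.20 and that of Ak3 -0.47. With the mean of all 11 markers the other 7 genes overlapped, and Ckm was still at 0.45, 0.10 and -0.55.

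Other cell types also differed along the same libraries. The mean of 5 red cell markers, haemoglobin genes among them, was 2.21, 0.01 and -3.06 relative to Ctrl-TAC across VNS-TAC, and -0.60 to 0.84 in Ctrl-TAC, with summed levels of 1503, 310 and 25.1 FPKM against 183 to 578. The skeletal muscle markers Myh1, Myh2, Myh4, Actn3 and Atp2a1 were under 1 FPKM in all 6 libraries, and the list's sum was 18.1 to 22.9 FPKM in VNS-TAC and 27.1 to 42.0 in Ctrl-TAC, with 2 of its 9 genes past the filter. Atrial markers (5 of 5 past the filter) summed to 3838, 5478 and 9078 FPKM against 3050 to 9819. Most of this sum was Nppa, at 2645, 4118 and 7691 FPKM across VNS-TAC and 2567 to 6992 in Ctrl-TAC. Myl7 (528, 619 and 707 against 195 to 1005) and Bmp10 (0.28, 1.02 and 9.25 against 0.0 to 33.3) rose in the same order. Myl4 (530, 554 and 486 against 214 to 1323) and Sln (135, 186 and 185 against 73.4 to 500) did not. The myosin gene Myh7, from the related list of ATPases, also rose in this order, at 165, 435 and 5427 FPKM against 600 to 1128. These atrial genes and Myh7 were named after their values were seen. The part of blood and of atrial tissue in this ranking of libraries was not tested.

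The marker means of neutrophils and fibroblasts did not overlap between the groups, and that of macrophages did. Those of smooth muscle, of skeletal muscle, and of neurones and glia did not overlap either. The smooth muscle, skeletal muscle, and neurone and glia means were lower in VNS-TAC, with differences of -0.73, -0.12 and -0.12. The fibroblast mean was also lower, and the neutrophil mean was higher, by 2.33. The summed level of 5 neutrophil markers was 52.4, 44.2 and 97.1 FPKM across VNS-TAC and 0.86 to 4.09 in Ctrl-TAC. Of these markers 4 of 5 passed the filter, and Ly6g, a defining marker, was under 1 FPKM throughout. The filter averages over both groups, so a pass can rest on the VNS-TAC values alone. The mean of 6 fibroblast markers was -0.51, -0.59 and -0.95 relative to Ctrl-TAC, against -0.01 to 0.02 in the controls. The summed levels of the fibroblast markers, 265 to 437 and 412.5 to 444.3 FPKM, overlapped. The mean of 5 macrophage markers was 0.11, -0.34 and -0.64, against -0.11 to 0.06, with summed levels of 149, 89.9 and 71.2 against 105 to 113.5 FPKM. The part of these cells in the Slc25a4 and Ak3 values was not tested.

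Genes with the pattern most like that of Ckm over the 6 libraries, by the root mean square difference of log2 deviations, were Cyc1 (0.080), Bves (0.081) and Jph2 (0.084). Cyc1, a subunit of respiratory complex III, was at 1216, 934 and 524 FPKM across VNS-TAC and 790 to 826 in Ctrl-TAC. Jph2, which joins the cell membrane to the calcium store, was at 287, 224 and 116 FPKM against 193 to 210. Mb was most like Cenpv (0.021), Endog (0.048), a mitochondrial nuclease, and Coq10a (0.055), a coenzyme Q binding protein. Ckb was most like Cdc42ep2 (0.087), Cd72 (0.093) and Pcolce (0.104). Cd72 was low, at 2.53, 1.13 and 0.20 FPKM across VNS-TAC and 1.85 to 2.42 in Ctrl-TAC. At such levels log2(FPKM + 1) understates changes, so its likeness to Ckb holds on that scale only. Among the 9 genes the closest pair was Ckmt2 and Mb (0.11) and the most distant Ckb and Slc25a4 (0.77).

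**Figure D4:**
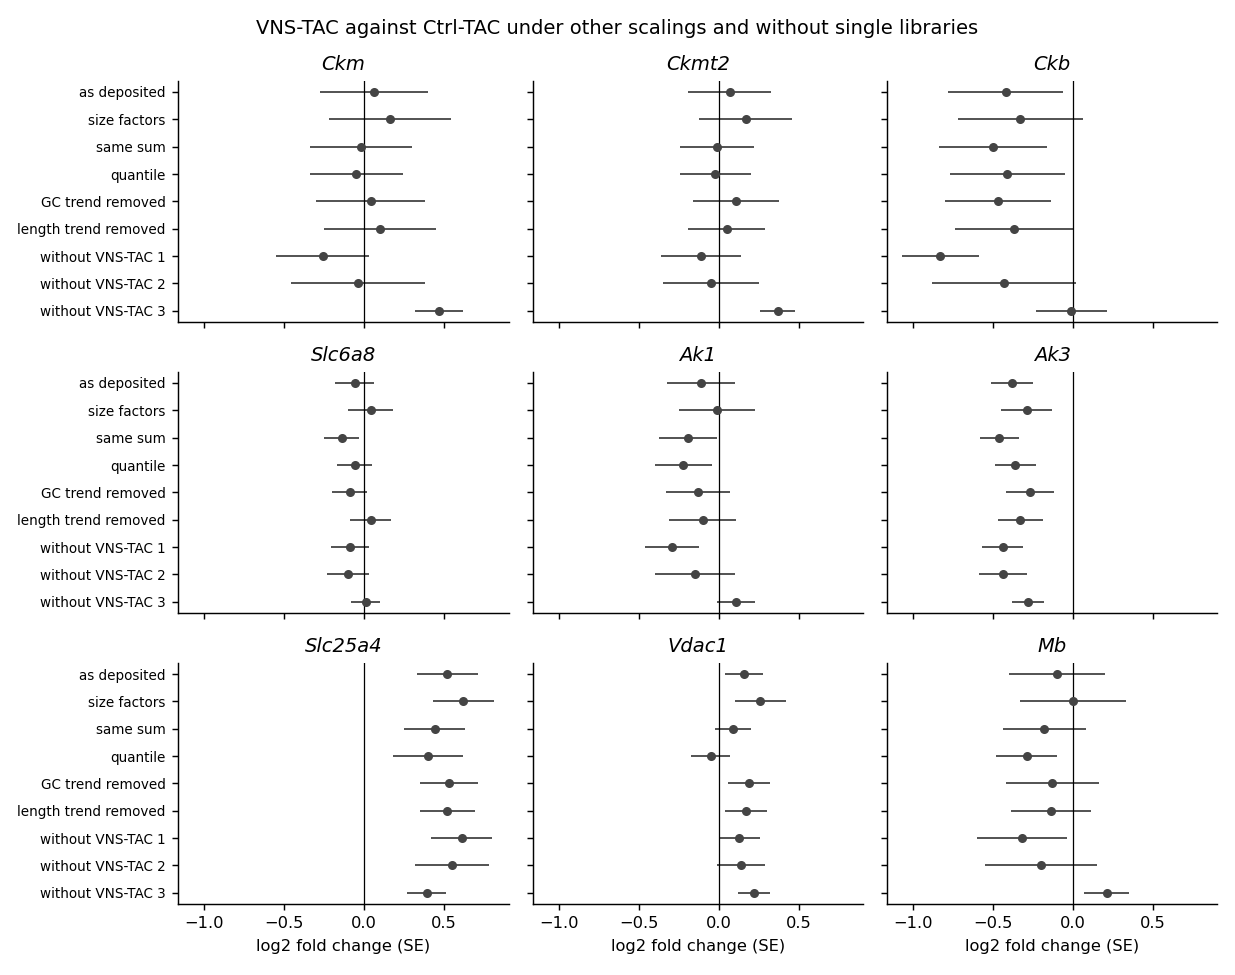
Log2 fold change between the groups, VNS-TAC minus Ctrl-TAC (horizontal axes, with the limma SE as bars) for each of the 9 genes as deposited, under 5 other scalings or corrections and with each VNS-TAC library left out. Slc25a4 stays between 0.39 and 0.62 and Ak3 between -0.46 and -0.27, while Ckm moves from -0.26 without VNS-TAC 1 to 0.47 without VNS-TAC 3.

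Falling ATP activates the AMP-activated kinase, which adjusts metabolism to save energy. Of its 12 listed subunits and upstream kinases, 0 passed limma, 4 had an unadjusted p under 0.05 (15.0% of all genes), 4 lay above and 8 below 0, and 8 had groups that did not overlap (25.4% of all genes), 3 higher (8.01%) and 5 lower (17.4%). Among these were both forms of the beta subunit, in opposite directions. Prkab2, the form of muscle, was at 7.98, 12.7 and 12.7 FPKM across VNS-TAC and at 20.97, 19.51 and 20.98 across Ctrl-TAC, a log2 fold change of -0.85 ± 0.19 (SE; limma adjusted p = 0.190). Prkab1 was at 16.6, 20.3 and 26.1 FPKM against 16.4, 14.9 and 16.0. The regulatory subunit gene Prkag1 was at 86.4 ± 10.1 against 68.1 ± 2.34 FPKM (SD, n = 3; log2 fold change 0.33 ± 0.13 SE, limma adjusted p = 0.289). The catalytic subunit genes Prkaa1 and Prkaa2 were both lower in all VNS-TAC libraries, Prkaa2 at 11.8, 17.0 and 15.0 against 18.3 to 21.9 FPKM. For Prkaa1 the gap was narrow, with a highest VNS-TAC value of 4.28 and a lowest Ctrl-TAC value of 4.31 FPKM. The overlap counts of this list hold for the values as deposited. They were not taken with size factors, where 14.0% of all genes lay higher and 11.2% lower without overlap. Nor were they taken with the GC trend removed, where 11.25% lay higher and 12.46% lower. Transcript GC content was 52.8% to 59.5% for the higher genes Prkab1, Prkag1 and Stk11. Among the lower genes it was 40.2% to 46.8% for Prkaa1, Prkaa2, Stradb and Prkab2, and 53.1% for Prkag3. The part of GC content in these directions was not tested. Each of these lists was chosen with results of these libraries known. Prkab1, Prkaa1, Prkaa2, Stk11, Stradb and Prkag3 were named after their values were seen.

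**Figure D5:**
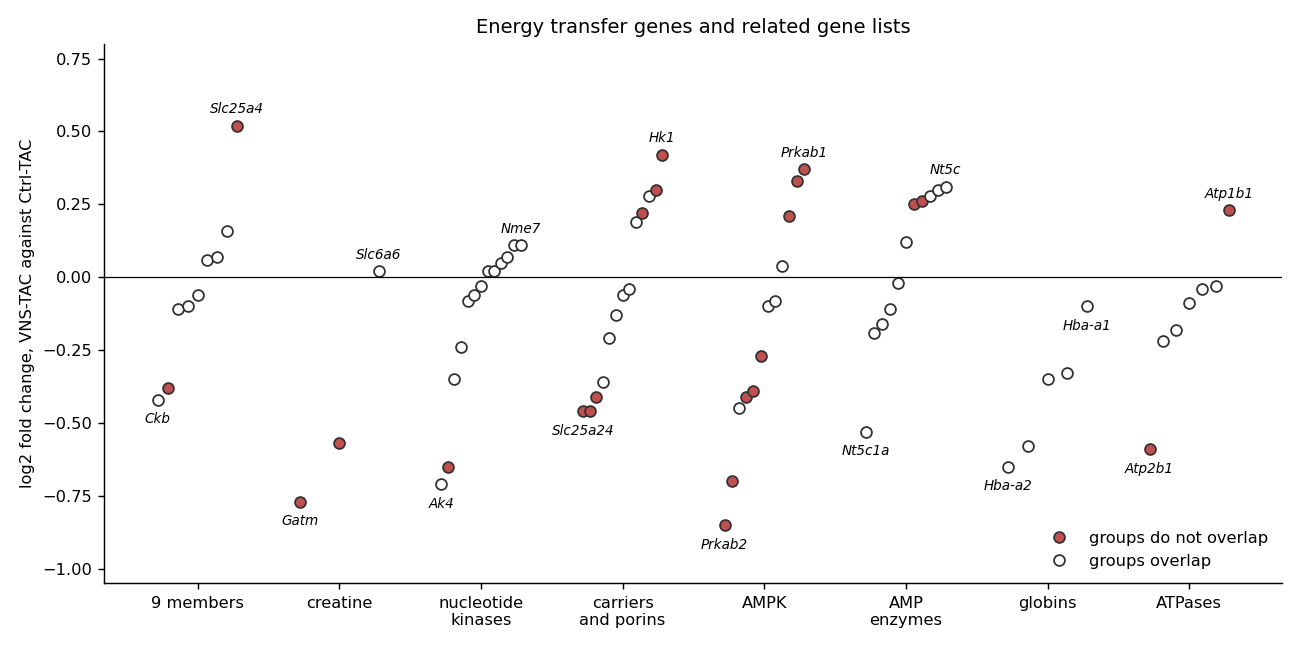
Log2 fold change between the groups, VNS-TAC minus Ctrl-TAC (vertical axis) for each tested gene of the 9 members and 7 related lists, sorted within each list, with filled symbols where the groups do not overlap and the lowest and highest gene of each list named. On the values as deposited, the 12 genes of the AMP-activated kinase list hold 8 filled symbols, with Prkab2 lowest at -0.85. The 9 members hold 2, beside 25.4% of all genes tested.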

How the data were processed

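The authors deposited FPKM values with 2 decimals for 18019 NCBI gene IDs in 6 columns, per the file headers. The submitters' processing notes name HISAT, featureCounts 1.5.0-p3, DESeq 1.8.3 and GRCm38 but no roles. How strand and shared reads were handled is not given in the sources used here. Control columns were matched by library name. VNS-TAC columns carry numbers other than those of the labels and are numbered as in the table. Nothing says that libraries came from separate animals, so a p-value here reflects only how far these libraries vary, which may be technical. The members and lists were chosen with earlier results of these data known.

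Symbols came from RefSeq (GRCm38.p6, 17890 IDs) and GENCODE M21 (15), and 114 IDs had none. Values were analysed as log2(FPKM + 1), which understates changes of low genes. All genes averaging 1 FPKM or more were compared with limma 3.58.1 (R 4.3.3, intensity trend) and Benjamini-Hochberg adjustment over 11422 genes. The function was tested on simulated data. Ratios and values relative to 11 cardiomyocyte genes used a 2-sided exact permutation test. Depths are estimates from low values and lengths of the longest transcripts, used in no test. Named genes were the 9 members, from each list the 2 smallest p-values and genes in a ratio, and the 3 genes most like Ckm, Ckb and Mb; others are marked as named after their values were seen. A gene of the nucleotide kinase list is not reported here. Alternatives were pseudocounts of 0.1 and 0.5, other filters, size factors, equal sums, quantile normalization, GC and length trends removed by lowess (99.1% of genes), limma without trend, robust or array-weighted, and leaving out each library. Python 3.11.15, pandas 2.3.3 and matplotlib 3.10.9 were used.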

Additional observations from a re-analysis of the deposited data

How the results depend on the processing

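Array weights called 1 of the 9 genes (Slc25a4), 6 genes of the related lists and 1016 of all genes, each 0 as deposited, in a fit whose VNS-TAC side rests mainly on library 2 (weight 2.82, against 0.246 and 0.247). All genes called were 1 when genes under a 5 FPKM average were dropped, 2 with size factors, 2 after quantile normalization, 2 with the GC trend removed, and 0 to 3 with single libraries left out. With libraries brought to the same sum the sign turned for Ckm (-0.02) and Ckmt2 (-0.01), and after quantile normalization for Ckm (-0.05), Ckmt2 (-0.02) and Vdac1 (-0.05). Slc6a8 turned to 0.04 with size factors, 0.04 with the length trend removed and 0.01 with array weights, and Mb to 0.01 with array weights. Vdac1 over Vdac2 and Vdac3 turned to -0.10 with the GC trend removed, and Ckmt2 relative to cardiomyocyte genes to -0.03 with a shorter marker list. With single libraries left out, log2 fold changes ran from -0.26 to 0.47 for Ckm, -0.11 to 0.37 for Ckmt2, -0.10 to 0.01 for Slc6a8, -0.29 to 0.11 for Ak1 and -0.32 to 0.21 for Mb. In the same way the ratio of Ckmt2 to Ckm ran from -0.10 to 0.15 and that of Slc6a8 to Ckm from -0.45 to 0.17, and relative to cardiomyocyte genes Ckmt2 ran from -0.07 to 0.18 and Mb from -0.28 to 0.02. The cause of these changes was not tested. Ckb, Ak3 and Slc25a4 kept their direction in all 18 alternatives, but Ckb ran from -0.83 without VNS-TAC 1 to -0.01 without VNS-TAC 3. No paired analysis was possible because VNS-TAC columns are numbered differently from the labelled libraries and cannot be matched to them singly. Only 3 libraries a group limit the precision, and the SE of the 9 log2 fold changes was 0.12 to 0.36.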

Other observations

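Enzymes of AMP and adenosine turnover included 11 tested genes, 6 above and 5 below 0, of which 0 passed limma, 1 had an unadjusted p under 0.05 (15.0% of all genes) and 2, Adsl and Aprt, had groups that did not overlap (25.4% of all genes), both higher. Aprt, an enzyme of adenine salvage, was named after its values were seen. Adsl, an enzyme of purine synthesis, was at 25.7, 23.0 and 23.4 FPKM across VNS-TAC and at 19.3, 19.9 and 20.2 across Ctrl-TAC (log2 fold change 0.26 ± 0.11 SE, limma adjusted p = 0.322). Nt5c1a, which makes adenosine from AMP in muscle, overlapped at 8.08, 6.51 and 4.25 against 7.84 to 11.7 FPKM (log2 fold change -0.53 ± 0.23, limma adjusted p = 0.340). Among 7 ATPases and pumps, which use the ATP that creatine kinase supplies, 0 passed limma, 1 lay above and 6 below 0, 1 had an unadjusted p under 0.05 (15.0% of all genes), and 2, Atp1b1 and Atp2b1, had groups that did not overlap (25.4% of all genes). Atp1b1, the beta subunit of the sodium pump, was at 173, 148 and 155 FPKM against 133 to 138, and Atp2b1, a calcium pump of the cell membrane, at 3.07, 6.37 and 6.15 against 6.52 to 8.93 (limma adjusted p = 0.375 and 0.332).

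Of the other globins, 5 were tested, all with a log2 fold change below 0 and overlapping groups, and 0 passed limma or an unadjusted p under 0.05. Cygb, a globin of fibroblasts and other non-muscle cells, was at 64.5, 60.8 and 43.7 FPKM across VNS-TAC and at 58.5 to 88.3 across Ctrl-TAC. The haemoglobin gene Hba-a2, which has a near-identical copy, ran from 280 in VNS-TAC 1 to 2.37 FPKM in VNS-TAC 3 (log2 fold change -0.65 ± 1.44, limma adjusted p = 0.837). For the 4 haemoglobin genes Hba-a1, Hba-a2, Hbb-bs and Hbb-bt the group means of FPKM ran the other way, with VNS-TAC over Ctrl-TAC ratios of 1.93, 1.64, 1.67 and 2.11, VNS-TAC 1 being the highest and VNS-TAC 3 the lowest library for each.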
